A study of Drosophila melanogaster with 72 samples.

Results

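Hoppel is a DNA transposon of the P element group that is scattered through the Drosophila melanogaster genome, mostly as copies too damaged to move on their own. It is concentrated in the heterochromatin next to the centromeres and on the small chromosome 4, and it is best known in flies for helping heterochromatin to form on reporter genes placed beside it. Heterochromatin protein 1 and the H3K9 methyltransferases package such copies, and Piwi-bound small RNAs silence many transposons in the germline. Here the RNA that mapped to single copies of hoppel was followed in photoreceptor nuclei over the day, in flies with RNA interference (RNAi) against the H3K4 methyltransferases Set1, Trr and Trx. The copies were taken by name: every annotated copy of this element was considered, and it was kept if all samples of some group of flies (1 genotype at 1 time) had at least 1 count per 1e6 counts of the library (CPM). Copies are called by their FlyBase identifiers. Of 493 annotated copies, 200 met this rule, among 14767 features that passed the same filter.

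The nuclei came from heads of 400 male flies per sample, aged 10 days, in which Rh1-Gal4 drove UAS-GFP-KASH, a nuclear membrane tag, together with the RNAi transgene. Rh1-Gal4 acts in the outer photoreceptors R1 to R6, and nuclei were enriched through the tag, so that RNA of other head cells can remain. The control carried RNAi against mCherry, a protein that flies lack, and all groups shared the driver and the tag. Each RNAi line was a stock of its own. There were 4 genotypes, 6 zeitgeber times (ZT0, 4, 8, 12, 16 and 20, in hours after lights on) and 3 samples per group. The library labelled Set1 RNAi ZT20 replicate 1 held only 687 counts and was left out, which left 71 libraries.

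Some facts of the whole series bear on the copies. Library totals ran from 8424081 to 24586538 counts. In the files' labels the mCherry and Set1 RNAi libraries share a sequencing platform that differs from that of the Trr and Trx RNAi libraries, so the platform cannot be told apart from Trr or Trx RNAi in comparisons with the control. Nuclear RNA of the targeted genes was not uniformly lower: the log2 fold change from the control was -0.03 for Set1 (edgeR adjusted p = 0.747) with Set1 RNAi, -0.94 for trr with Trr RNAi and -0.17 for trx with Trx RNAi, while trr was also at -0.86 with Trx RNAi. Groups are therefore called by their labels, and every direction given for Set1 RNAi refers to the libraries labelled so. The control library of ZT12 replicate 1 stood apart, with a mean correlation of 0.896 with its group against a median of 0.988 over all libraries. The summed CPM of 11 outer photoreceptor marker genes was 61558 to 120537 in control libraries and 56050 to 85324 in those of Set1 RNAi. Trr RNAi libraries were at 14674 to 24154 and Trx RNAi libraries at 14550 to 26933. That of 5 muscle markers was 8.99 to 39.8, 12.5 to 126, 239 to 1085 and 369 to 1242 CPM in the same order. The part of these shifts in the results below was not tested. In bulk RNA, fewer nuclei of a type and less RNA per nucleus cannot be told apart.

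Copies that were detected were mostly those inside genes. By the gene and exon coordinates given with the counts, 183 copies lay within introns, 267 between genes and 43 over an exon, and 118 (64.5%), 68 (25.5%) and 14 (32.6%) of them met the rule. By chromosome arm, 68 of 120 copies met it on 2R, 47 of 86 on 3L, 32 of 60 on chromosome 4, 26 of 69 on 3R, 14 of 62 on 2L, 12 of 39 on X and 1 of 57 on Y. Of the 293 copies that did not, 78 had no count in any library. Reads that mapped to several places were not counted, so a copy identical to another has few countable reads whatever its RNA level. At the edge of the rule, FBti0215092 (0.997 CPM in its best group's lowest replicate) fell just outside and FBti0020243 (1.03 CPM) just inside. The median length was 1083.5 bp among the 200 copies and 1051 bp among the others, and 16 of the 200 were shorter than 100 bp.

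Levels were low and very unequal. Mean CPM over all libraries had a median of 2.39 among the 200 copies (quartiles 0.99 and 6.82), compared with 8.35 over all features tested. Intronic copies had a median of 3.18 CPM, those over an exon 3.68 CPM and those between genes 1.2 CPM. The summed level of the 200 copies was 1094 to 3067 CPM per library in the control (median 1964), 1474 to 1943 with Set1 RNAi (1736), 627 to 1685 with Trr RNAi (915) and 698 to 1032 with Trx RNAi (914). Without the most abundant copy, the medians were 1427, 1412, 870 and 866 CPM. After TMM scaling, Trr and Trx RNAi libraries lay mostly below the control in this sum, whereas Set1 RNAi libraries lay within the control's range. This scaling divides the CPM of a library by its TMM factor, so a larger factor gives a lower CPM. The median factor was 0.79 for control libraries and 0.81 for those of Set1 RNAi, but 1.21 for Trr and 1.28 for Trx RNAi. Sums scaled to library totals alone were not compared, so how much of the lower sums comes from these factors was not tested.

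The most abundant copy, FBti0215155 (3L, 25598302 to 25599417, minus strand, 1116 bp), lies in an intron of lovit, which encodes a histamine transporter of photoreceptor synaptic vesicles, and on the same strand. It was at 232, 512 and 800 CPM (lowest, median and highest of 18 libraries) in the control. With Set1 RNAi it was at 244, 288 and 420 CPM, with Trr RNAi at 20.9, 44.0 and 169 CPM and with Trx RNAi at 23.6, 47.6 and 62.0 CPM. Every control library was above every Trr and Trx RNAi library, and 16 of 18 control libraries were above all those of Set1 RNAi. It fell by 3.37 on the log2 scale with Trr RNAi (SE 0.12, edgeR adjusted p = 2.5e-32) and by 3.49 with Trx RNAi (SE 0.12, edgeR adjusted p = 5.3e-33), and with Set1 RNAi its log2 fold change was -0.74 (SE 0.11). The host gene lovit was at -2.69, -2.76 and -0.81 in these comparisons.

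The next 7 copies by level are all intronic. FBti0215121 (2R, 2831084 to 2832248), in CG41378, had median levels of 87.7, 60.2, 27.9 and 25.0 CPM in the control, Set1, Trr and Trx RNAi libraries. FBti0019546 (X, 2664442 to 2665527) lies in sgg, the fly GSK3 kinase that phosphorylates the clock protein Timeless, and had medians of 49.4, 46.0, 8.53 and 8.39 CPM in the same order. Its control libraries (31.3 to 80.2 CPM) did not overlap with those of Trr RNAi (4.12 to 17.8 CPM) or Trx RNAi (6.28 to 10.1 CPM), and its log2 fold changes were -2.59 (SE 0.10, edgeR adjusted p = 5.9e-31) and -2.57 (SE 0.10, edgeR adjusted p = 7.6e-31). FBti0215159 (3L, 25998112 to 25999310) and FBti0215158 (3L, 25924910 to 25926178) share the host l(3)80Fg and an orientation opposite to it, but with Trr RNAi they were at log2 fold changes of -1.35 and -0.33 (SE 0.08 and 0.10). The difference between these copies was not tested. The fall of FBti0215159 was under the fold threshold when counts were scaled to library totals alone, at -0.72 with Trr RNAi and -0.85 with Trx RNAi, and at -0.88 with Trr RNAi when 3 RUVs factors, which stand for unwanted variation estimated from replicates, were added. FBti0060848 (2R, 4598166 to 4599121), in the catenin gene p120ctn, fell by 1.41 with Trr RNAi and by 1.44 with Trx RNAi (edgeR adjusted p = 5.7e-20 and 2.5e-20), and was at -0.78 and -0.74 under that scaling and at -0.55 and -0.56 with 3 RUVs factors. FBti0215166 in vtd, a cohesin subunit, and FBti0215167 in Dbp80, an RNA helicase gene, were at log2 fold changes between -0.65 and -0.73 in both comparisons, short of the threshold.

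**Figure D1:**
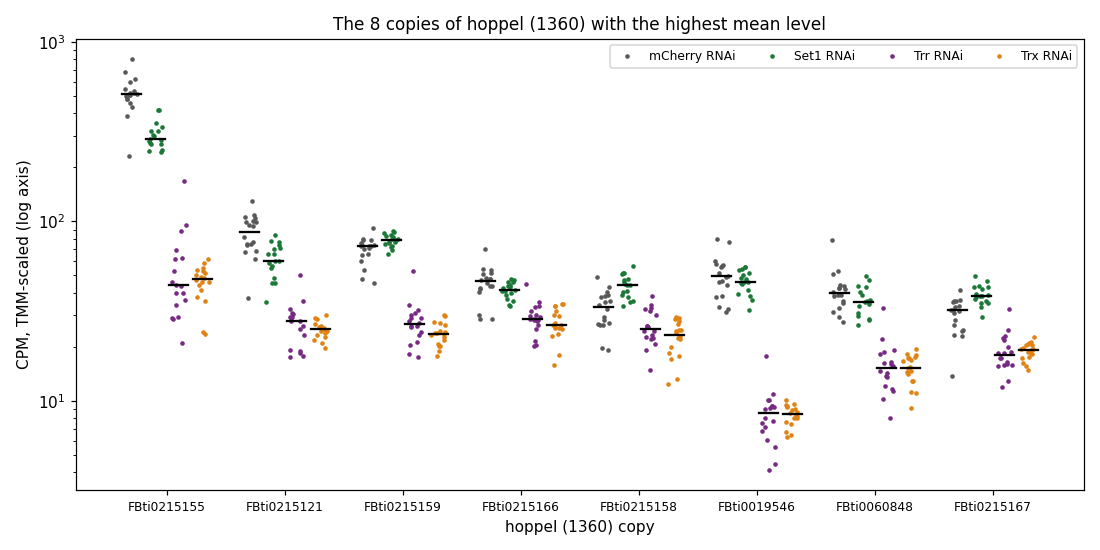
CPM (TMM-scaled, log axis) of the 8 most abundant copies of hoppel, with a point for each library, colour for genotype and a black bar at the median. FBti0215155 lies between 232 and 800 CPM in the control and between 20.9 and 169 CPM with Trr RNAi, with no overlap.

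For each knockdown the mean level of the copies was compared with the control. Copies were called higher or lower when edgeR's quasi-likelihood test on the average of the 6 times gave an adjusted p below 0.01 and the fold change was 1 log2 unit or more. With Set1 RNAi 30 of the 200 copies were higher, against 7.26% of all features, and 7 were lower, against 1.66%. With Trr RNAi 39 were higher (28.5% of all features) and 61 lower (17.9%). With Trx RNAi 40 were higher (28.5% of all features) and 57 lower (18.7%). The copies had median log2 fold changes of 0.08, -0.37 and -0.43 with Set1, Trr and Trx RNAi, compared with 0.01, 0.08 and 0.09 over all features. The Trr and Trx comparisons share their control libraries.

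The counts of calls moved with the scaling, with RUVs factors and with how a copy met the rule. With 1 and 3 RUVs factors 19 and 10 copies were higher with Trr RNAi, while for Trx RNAi there were 17 and 13. With counts scaled to library totals alone, Trr RNAi had 60 higher and 28 lower copies and Trx RNAi had 62 and 28, and the copies' medians turned to 0.26 and 0.27 while those of all features moved to 0.71 and 0.78. The copies' medians were thus below those of all features under both scalings. With 3 RUVs factors they were -0.20 and -0.10 with Trr and Trx RNAi, compared with -0.17 and -0.18 over all features. The order with Trx RNAi was then the reverse. Of the 30 copies higher with Set1 RNAi, 24 were among the 94 copies that met the rule in fewer than 4 genotypes. Of these 94 copies, 20 met it in 1 genotype (10 in Set1 RNAi only), 52 in 2 and 22 in 3, and entry then favours a high level in those genotypes. Among the 106 copies that met it in all 4 genotypes, 6 were higher and 4 lower with Set1 RNAi, 7 higher and 32 lower with Trr RNAi, and 9 higher and 31 lower with Trx RNAi.

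Other transposable elements gave the following shares. Of 940 copies of INE-1, an abundant fly element of the helitron type, 129 were higher and 28 lower with Set1 RNAi, 262 and 249 with Trr RNAi, then 248 and 275 with Trx RNAi, with medians of 0.11, -0.27 and -0.35. Of 1567 copies of the remaining elements, 238 were higher and 61 lower with Set1 RNAi, 276 and 666 with Trr RNAi, then 271 and 687 with Trx RNAi, with medians of 0.09, -0.70 and -0.76. The medians of hoppel lay between those of the other element classes with Trr and Trx RNAi, and the difference was not tested.

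Among the copies of hoppel, those between genes were higher with Set1 RNAi in 17 of 68 cases and lower in 3, and intronic copies were higher in 13 of 118 and lower in 2, against 7.26% higher and 1.66% lower over all features. With Trr RNAi, 23 of 68 copies between genes and 33 of 118 intronic copies were lower, against 17.9% of all features, of which 28.5% were higher. On 2R, 16 of 68 copies were higher with Set1 RNAi, and 9 were higher and 25 lower with Trr RNAi. The 32 copies on chromosome 4 included 4 higher and 5 lower with Trr RNAi, with a median log2 fold change of -0.19, and 2 higher and 3 lower with Set1 RNAi.

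The largest rise with Set1 RNAi was that of FBti0215148 (3L, 24803982 to 24805228, between genes, 45946 bp from scro, a homeobox gene). It was at 0, 0.895 and 2.06 CPM (lowest, median and highest) in the control and at 8.63, 14.0 and 18.6 CPM in the 17 libraries with Set1 RNAi, so the groups did not overlap. Its log2 fold change was 3.96 (SE 0.19, edgeR adjusted p = 3.3e-25). It was the only copy of the 200 whose Set1 RNAi libraries all lay outside the control's range, against 0.67% of all features that did so upward. With Trr RNAi it was at 1.01, 3.13 and 8.74 CPM (log2 fold change 1.83, SE 0.19) and with Trx RNAi at 1.5, 2.51 and 4.19 CPM (1.61, SE 0.19), and both passed the test. It met the rule in all genotypes but the control, so that its entry favoured a low control level.

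FBti0215202 (3R, 3319697 to 3320493) lies 2317 bp from spok, a cytochrome P450 gene of ecdysone synthesis, and had a median of 0.681 CPM in the control (highest 2.61) and 7.22 CPM (highest 18.6) with Set1 RNAi. Its log2 fold change was 2.72 (SE 0.19, edgeR adjusted p = 3.6e-18), and 12 of 17 Set1 RNAi libraries were above every control library. FBti0062810 (X, 185555 to 185624), only 70 bp long, lies in tyn, a gene of the zona pellucida domain family, and rose by 2.31 on the log2 scale (SE 0.29, edgeR adjusted p = 2.5e-09) while tyn itself rose by 2.02. It met the rule only through Set1 RNAi, so its rise is a description.

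Falls with Set1 RNAi were led by FBti0061789 (3R, 4215890 to 4215925, 36 bp), in an intron of aux, the auxilin gene that acts in uncoating clathrin vesicles. It was at 0, 2.70 and 4.91 CPM in the control, at 0, 0.205 and 0.627 CPM with Set1 RNAi, at 0, 0.0216 and 0.131 CPM with Trr RNAi and at 0, 0.0234 and 0.151 CPM with Trx RNAi. Of the 18 control libraries 17 were above every library of the other genotypes, and the exception at 0 was the ZT12 replicate that stood apart. Its log2 fold changes were -4.02 (SE 0.36), -5.93 (SE 0.36) and -6.03 (SE 0.37) with Set1, Trr and Trx RNAi (edgeR adjusted p = 7.5e-14, 1.8e-21 and 1.7e-21), the lowest of the 200 copies in each comparison, on 34, 13 and 17 reads against 456 in the control. The host aux fell less, by 1.72 with Trr RNAi and by 1.70 with Trx RNAi, and was at -0.96 with Set1 RNAi.

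FBti0062777 (2L, 20209442 to 20210865, between genes) was also highest in the control. It was at 0, 1.83 and 3.71 CPM in the control, and the highest libraries of Set1, Trr and Trx RNAi were at 0.418, 0.455 and 0.234 CPM. Again 17 of 18 control libraries were above all others. Its log2 fold changes were -3.90 (SE 0.37), -3.19 (SE 0.29) and -5.20 (SE 0.35) (edgeR adjusted p = 4.0e-13, 3.4e-15 and 6.8e-20). FBti0061789 and FBti0062777 met the rule only through the control, where they are high, so a fall was built into their choice and these values are a description. On chromosome 4, FBti0020438 (960196 to 961328) lies in the antisense RNA gene CR44030 and fell by 1.46 with Set1 RNAi (SE 0.21, edgeR adjusted p = 6.3e-08), as did its host (-1.5). Reads of an antisense gene and its partner cannot be told apart in these counts.

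With Trr and Trx RNAi the largest rises were those of copies nearly absent from the control. FBti0060836 (3R, 25494696 to 25494845, 150 bp), in an intron of CG33494, was at 0 in 13 of 18 control libraries, with 7 reads in all and a highest level of 0.174 CPM. It was at 0.239, 0.778 and 1.0 CPM with Trr RNAi and at 0.280, 0.906 and 1.64 CPM with Trx RNAi, with no overlap with the control. Its log2 fold changes were 4.57 (SE 0.42, edgeR adjusted p = 8.1e-14) and 4.92 (SE 0.40, edgeR adjusted p = 1.9e-15). FBti0060467 (3L, 23782727 to 23782912, between genes) rose by 3.28 and 3.36 (edgeR adjusted p = 8.1e-12 and 3.1e-12), on 22 reads in the control. FBti0061751 (X, 22728162 to 22728496), in lncRNA:CR44997, rose by 3.14 with Trr RNAi (edgeR adjusted p = 1.9e-11), and FBti0061688 (2R, 5426917 to 5426952), in the laccase gene stw, rose by 3.19 with Trx RNAi (edgeR adjusted p = 2.1e-10). All 4 copies met the rule only through Trr and Trx RNAi groups, where they are high, so their rises and their lack of overlap are a description. None of these 4 copies kept its call with 1 or with 3 RUVs factors, and with 3 the adjusted p of edgeR was 0.12 to 0.39. Groups of libraries that did not overlap with the control were found for 13 copies that were higher and 7 that were lower with Trr RNAi, against 16.2% and 8.32% of all features. With Trx RNAi there were 14 and 16, against 17.8% and 10%.

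**Figure D2:**
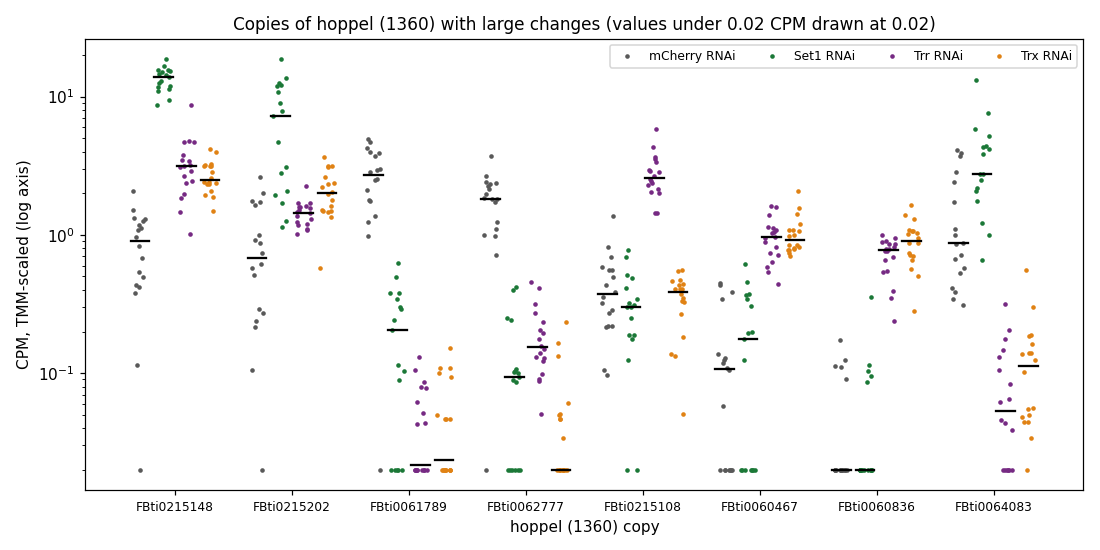
CPM (TMM-scaled, log axis) of 8 copies with large changes, with a point for each library, colour for genotype and a black bar at the median. Values under 0.02 CPM are drawn at 0.02, and FBti0215108 stands above all other groups only with Trr RNAi, at 1.43 to 5.88 CPM.

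The copies in and beside Ir41a, an ionotropic receptor gene of chemosensory neurons, were chosen for a closer description after their values were seen. These 5 are FBti0064081 (4941604 to 4941866), FBti0064083 (4986613 to 4986675) and FBti0059685 (5014663 to 5016299) in introns of Ir41a, and FBti0019896 (5026792 to 5027534) and FBti0064097 (5028781 to 5028941) beyond its end, all on 2R and within 87.3 kb. All 5 were lower with Trr RNAi, with log2 fold changes from -4.13 to -3.02, and with Trx RNAi, from -3.44 to -2.55. With Set1 RNAi 4 of the 5 were higher, and FBti0064081 was at 0.53 (SE 0.23, edgeR adjusted p = 0.059). The call of FBti0064083 with Set1 RNAi was lost without replicate 2 of all groups (1.04, edgeR adjusted p = 0.013). FBti0064083 had levels of 0.314, 0.868 and 4.13 CPM in the control and 0, 0.0535 and 0.319 CPM with Trr RNAi, where 17 of 18 libraries were below every control library. FBti0064081, FBti0064083 and FBti0064097 met the rule only through the control and Set1 RNAi, so their falls with Trr and Trx RNAi are a description. Ir41a was at 1.08 with Set1 RNAi (0.96 and 0.93 without replicates 1 and 2), and at -3.22 and -2.69 with Trr and Trx RNAi. The 5 copies lie close together and are not independent of each other.

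Intronic copies were compared with the genes that hold them, since an intronic read can come from the host's pre-mRNA or from the copy. The 118 intronic copies lie in 75 host genes, of which 24 hold 2 or more of them. Across these copies the log2 fold changes of copy and host had a Pearson's r of 0.64, 0.83 and 0.79 for Set1, Trr and Trx RNAi, and a Spearman's rho of 0.77, 0.79 and 0.78. These are descriptions over points that share their libraries and in part their host. With 1 copy per host, the most abundant, r was 0.82, 0.82 and 0.81. Copy and host had the same sign in 93, 100 and 100 of 118 cases.

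Of the 60 intronic copies called changed with Trr RNAi, 37 lay in a host called in the same direction, 1 in a host called in the opposite direction and 22 in a host that was not called. With Trx RNAi these were 39, 4 and 18 of 61, and with Set1 RNAi 9, 0 and 6 of 15. Copies were lower relative to their hosts with Trr and Trx RNAi: the median of copy minus host was -0.34 and -0.31 on the log2 scale, and 84 and 81 of 118 copies were below their host. Host values come from reads over exons, and those of the copies from sequence within introns. A general difference between introns and exons was not tested. With Set1 RNAi the median was 0.06. Copies on the same strand as the host and on the opposite strand had correlations of 0.83 and 0.85 with Trr RNAi (68 and 50 copies), and 0.74 and 0.43 with Set1 RNAi. The counting ignored strand.

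**Figure D3:**
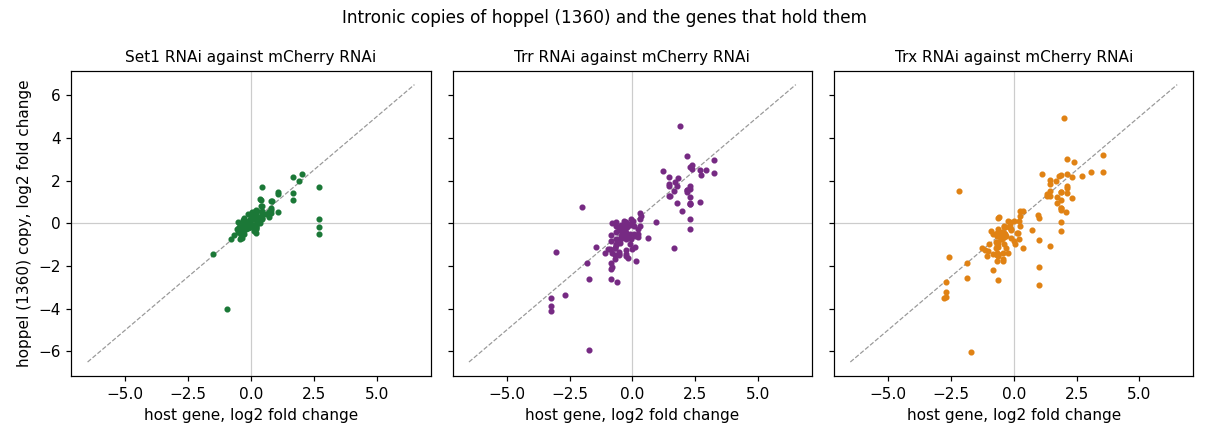
Log2 fold change from the control of 118 intronic copies of hoppel (vertical) against that of the gene that holds each (horizontal), with a panel for each knockdown and a dashed line where both are equal. Pearson's r is 0.64, 0.83 and 0.79, and most points with Trr and Trx RNAi lie below the line.

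Hosts with several copies show how far copies within the span of 1 gene differ. Whether such copies share a transcript was not tested. Myo81F, a myosin gene in the heterochromatin of 3R, holds 9 of the 200 copies and was at 2.29 on the log2 scale with Trr RNAi, while its copies ran from -0.25 to 2.66. Pzl, a gene of the Piezo channel family, holds 4, and was at 2.71 with Set1 RNAi while its copies ran from -0.49 to 1.72. The 3 copies in AGO3, the Argonaute of the piRNA amplification cycle, were all above the gene: they were at 1.76 to 2.16 with Trr RNAi against 1.44 for AGO3. The 3 copies in Snap25, a synaptic SNARE gene, were all below it: they were at -1.52 to -1.25 with Trr RNAi against -0.24 for Snap25. Over the 24 hosts, the median range between copies was 0.63 with Trr RNAi, where the SD over all intronic copies was 1.64. A range over few copies and an SD are unlike measures, so these values are given without a comparison.

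Trr and Trx RNAi, which share a platform, differed at few copies. Only 2 copies were higher and 2 lower with Trr RNAi than with Trx RNAi, against 0.42% and 0.718% of all features. FBti0215108 (2R, 1509982 to 1511076, 1734 bp from Maf1, a repressor of RNA polymerase III) was at 1.43, 2.59 and 5.88 CPM with Trr RNAi and at 0.0506, 0.389 and 0.561 CPM with Trx RNAi. All 18 Trr RNAi libraries were above every library of Trx RNAi and of the control (0.0972 to 1.37 CPM). The difference was 2.95 on the log2 scale (SE 0.20, edgeR adjusted p = 3.6e-18), and with Trx RNAi the copy was at -0.25 from the control. It met the rule only through Trr RNAi, where it is high, so these values are a description. Against the control it was at 2.70 with Trr RNAi (edgeR adjusted p = 9.7e-17), and with 3 RUVs factors at 1.33 (edgeR adjusted p = 0.31). FBti0215201 (3R, 3196094 to 3197190), in Pzl, was lower with Trr RNAi by 1.09 (SE 0.14, edgeR adjusted p = 3.6e-08). It met the rule only through Set1 and Trx RNAi, so this lower level is a description. FBti0062777 was higher with Trr RNAi by 2.01 (SE 0.45, edgeR adjusted p = 0.0012). That call was lost without replicate 1 and without replicate 2 of all groups (edgeR adjusted p = 0.024 and 0.035). The remaining copy, FBti0062778, is named because only 4 were called, and was lower by 1.08, with that direction at 5 of the 6 times.

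A 24-h rhythm was then tested in each genotype with a cosine of that period in edgeR's quasi-likelihood model, and called when its adjusted p was below 0.05. Such a rhythm was present for 72 of the 200 copies in the control (42.6% of all features), for 51 with Set1 RNAi (34.1%), for 9 with Trr RNAi (5.88%) and for 3 with Trx RNAi (4.06%). When each genotype was fitted alone, there were 29 copies in the control and 10 with Trx RNAi, against 3158 and 1773 of all 14767 features. In these fits 3863 features were rhythmic with Set1 RNAi and 2332 with Trr RNAi, so the genotypes differed less over all features than in the joint fit. With 1 replicate number left out of all groups, the counts were 45 to 63 in the control (45 without replicate 2), 26 to 40 with Set1 RNAi (29 and 26 without replicates 2 and 3), 2 to 5 with Trr RNAi and 0 to 1 with Trx RNAi. Of all features, 4287 to 5254, 3143 to 4345, 327 to 432 and 219 to 433 passed in the same order. Without control ZT12 replicate 1 there were 14 copies with Trr RNAi, against 1218 features. The peak-to-trough amplitude, on the log2(CPM + 1) scale, had medians over the copies of 0.49, 0.47, 0.32 and 0.22 in control, Set1, Trr and Trx RNAi libraries, compared with 0.53, 0.49, 0.26 and 0.20 over all features. Of the 72 rhythmic copies in the control, 22 peaked from ZT16 to ZT20 (16.8% of all rhythmic features) and 14 from ZT20 to ZT24 (23.3%). With Set1 RNAi, 14 of 51 peaked from ZT4 to ZT8 (25.3% of all rhythmic features) and 17 from ZT8 to ZT12 (15.2%).

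The copies with the clearest rhythm in the control were FBti0059788, FBti0020230 and FBti0020224. FBti0059788 (2R, 6164800 to 6164830) is a 31 bp remnant in an intron of EcR, the ecdysone receptor gene. In the control it was at 4.56 ± 1.37 CPM at ZT20 (SD, n = 3) and at 0.222 ± 0.206 CPM at ZT4 (SD, n = 3), with its fitted peak at 20.1 h (edgeR adjusted p = 4.0e-14), and EcR peaked at 20.4 h. With Set1 RNAi it was at 2.85 ± 0.368 CPM at ZT20 (SD, n = 2). With Trr RNAi its means stayed between 0.547 and 0.838 CPM and with Trx RNAi between 0.343 and 0.843 CPM, and the change of rhythm passed the test in both (edgeR adjusted p = 1.3e-08 and 1.2e-07). It met the rule only through the control and Set1 RNAi, where its peak is high. Its rhythm there and these changes are therefore a description.

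FBti0020230 (3L, 23089320 to 23090522), 2668 bp from the ribosomal protein gene RpL10, peaked in the light phase. It was at 10.0 ± 2.39 CPM at ZT8 and 1.35 ± 0.325 CPM at ZT16 in the control (SD, n = 3), and at 24.5 ± 3.7 and 6.26 ± 0.479 CPM with Set1 RNAi (SD, n = 3). With Trx RNAi its means were 2.27 to 3.09 CPM at all times. Its change of rhythm passed the test with both Trr and Trx RNAi (edgeR adjusted p = 2.9e-07 and 4.1e-06). FBti0020224 (3L, 23061575 to 23062678) was at 4.69 ± 1.53 CPM at ZT8 and 0.336 ± 0.0847 CPM at ZT16 in the control (SD, n = 3), and its rhythm also changed with both Trr and Trx RNAi (edgeR adjusted p = 9.2e-06 and 0.00019). Both lie with 2 more copies within 43.0 kb, and all 4 were rhythmic with Set1 RNAi, with peaks from 7.42 to 8.19 h.

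A change of rhythm was found for 7 copies with Set1 RNAi (3.6% of all features), 37 with Trr RNAi (21%) and 17 with Trx RNAi (17.6%), and for 0 between Trr and Trx RNAi (0.0271%), where edgeR gave 5 copies an unadjusted p below 0.05. With Set1 RNAi it was clearest for FBti0061958 (3L, 23103649 to 23104623), 189 bp from CkIIalpha, the catalytic subunit of a kinase that phosphorylates the clock protein Period. It was at 5.47 ± 1.13 CPM at ZT8 and 3.31 ± 0.33 CPM at ZT16 in the control (SD, n = 3), and at 15.4 ± 2.75 and 3.81 ± 1.23 CPM with Set1 RNAi (SD, n = 3; edgeR adjusted p = 0.0013). FBti0215201 in Pzl reached 10.3 ± 3.48 CPM at ZT12 with Set1 RNAi against 1.09 ± 0.693 CPM in the control (SD, n = 3; edgeR adjusted p = 0.0017). This copy met the rule only through Set1 and Trx RNAi, so its change of rhythm with Set1 RNAi is a description. For FBti0061747 (X, 22671363 to 22671414), a 52 bp copy in lncRNA:CR44997, all control and Set1 RNAi libraries were at or under 1.23 CPM (edgeR adjusted p = 0.010). No copy passed with Set1 RNAi when the fit held just these 2 genotypes or without replicate 3, and 2 passed without replicate 2. Of all features 31, 65 and 46 passed in these fits. Without replicate 2 there were 8 copies with Trr RNAi and 4 with Trx RNAi, against 1147 and 929 of all features. Without replicate 1 there were 11 with Trx RNAi, against 1718 of all features.

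**Figure D4:**
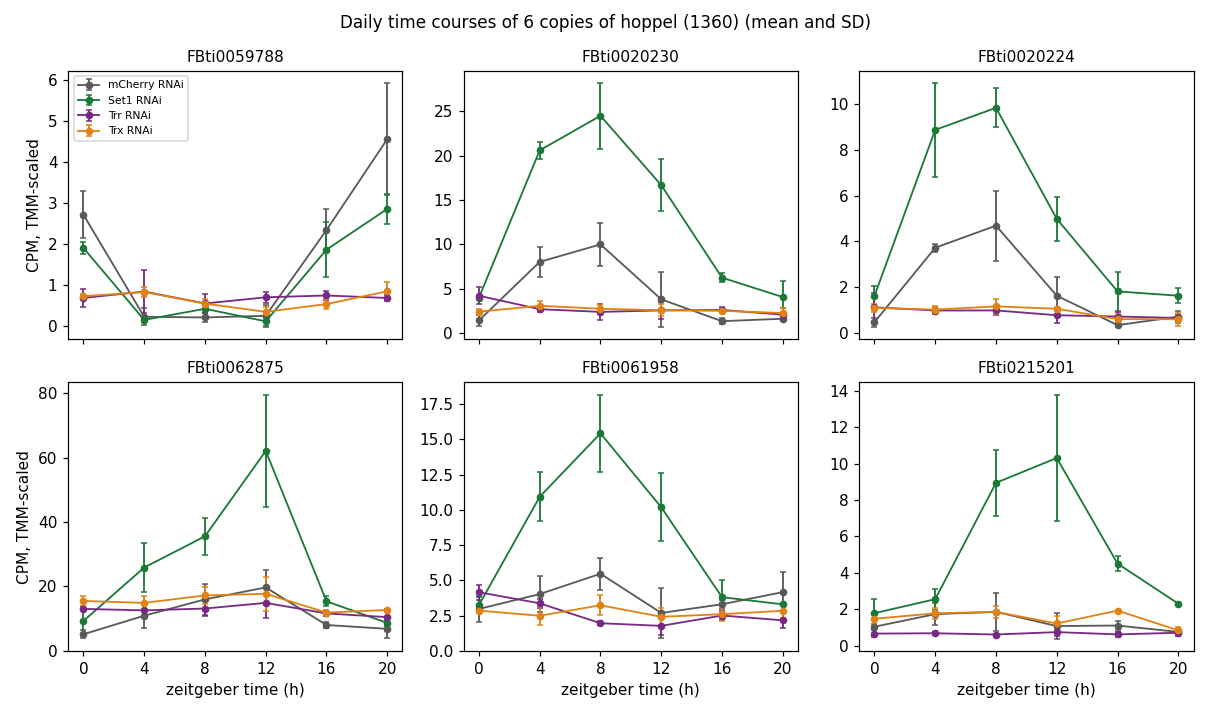
CPM (TMM-scaled) of 6 copies at 6 zeitgeber times, with the mean and SD of 3 samples (2 for Set1 RNAi at ZT20) and colour for genotype. FBti0020230 reaches 24.5 CPM at ZT8 with Set1 RNAi and 10.0 CPM in the control, while the Trr and Trx RNAi lines stay low over the day.

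Among the 51 copies that were rhythmic with Set1 RNAi the lowest adjusted p was that of FBti0062875 (3R, 18922054 to 18922275), in the stress-responsive transcription factor gene Xrp1, which was at 62.0 ± 17.5 CPM at ZT12 and 8.67 ± 0.544 CPM at ZT20 (SD, n = 3 and 2; edgeR adjusted p = 4.8e-13). Its mean level also rose with Set1 RNAi (log2 fold change 1.03, SE 0.12), but was 0.90 to 0.99 and so under the threshold without replicate 1, without replicate 2 or without control ZT12 replicate 1. With Trr RNAi FBti0215155 in lovit was at 109 ± 52.9 CPM at ZT0 and 31.3 ± 4.28 CPM at ZT12 (SD, n = 3; edgeR adjusted p = 3.9e-06), and FBti0215154 (3L, 25190125 to 25191214) was rhythmic in the control, Set1 RNAi and Trr RNAi with peaks at 3.4, 5.2 and 4.4 h. The 3 copies that were rhythmic with Trx RNAi were FBti0019896, FBti0064097 and FBti0059685, all in or beside Ir41a, with peaks within the hour after 11 h.

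Of the 41 intronic copies with a rhythm in the control, 31 lay in a host that was rhythmic too, against 57 of all 118 intronic copies. The peaks of 25 of these 31 were within 4 h of the host's, with a median distance of 1.53 h. On chromosome 4, 16 of 32 copies were rhythmic in the control (42.6% of all features), 4 with Set1 RNAi (34.1%) and 0 with Trr (5.88%) or Trx RNAi (4.06%), where edgeR gave 3 and 0 of them an unadjusted p below 0.05. The 3 most abundant there were FBti0019485 (318219 to 319293) in Rnf11, a RING finger gene, FBti0062138 (1194282 to 1194701) in the lipid kinase gene PIP4K and FBti0020422 (454066 to 455145), 119 bp from the calmodulin kinase gene CaMKI. FBti0020422 was at 42.0 ± 17.2 CPM at ZT20 and 16.7 ± 5.59 CPM at ZT12 in the control (SD, n = 3; edgeR adjusted p = 0.00037). None of these 3 copies passed the threshold for a change in mean level, with log2 fold changes from -0.67 to -0.03 in the 3 comparisons with the control.

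When each copy was assigned to the best of the rhythm models over the 4 genotypes by the Bayesian information criterion (BIC weight of at least 0.4), 114 of 200 copies were classified, against 64.9% of all features. A control rhythm was chosen for 62 of the 114 (59.3% of all classified features), and it was absent in at least 1 knockdown for 53 (49.5%), of which 24 had lost it with Trr and Trx RNAi and kept it with Set1 RNAi (29.4%). It was kept with a change in amplitude or phase for 3 (7.2%), and 41 were given no rhythm at all (30.9%). The same rhythm in all 4 genotypes was chosen for 6 (2.62%), and a rhythm present only in a knockdown for 11 (9.8%). At a weight of at least 0.6, 46 copies were classified (32.3% of all features) and 18 of them had lost their rhythm (53.7% of all classified features).

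Genes of transposon silencing were examined beside the copies. Of 20 heterochromatin genes, 0 were called by edgeR with Set1 RNAi (10 at an unadjusted p below 0.05), 1 was higher and 2 lower with Trr RNAi, and 1 was higher and 1 lower with Trx RNAi. The gene of Heterochromatin protein 1 was at log2 fold changes of -0.17, 0.47 and 0.48, and egg, an H3K9 methyltransferase gene, at -0.06, -0.10 and -0.05 with Set1, Trr and Trx RNAi. Su(var)3-9, another such enzyme, was at 0.38, 0.00 and 0.01. Those called were HP6 (2.98 and 3.20 with Trr and Trx RNAi), a gene of the HP1 family, and the demethylase genes Kdm4A (-1.02 with Trr RNAi, and -0.94 without control ZT12 replicate 1) and Kdm4B (-1.21 and -1.33). Of 22 tested piRNA pathway genes, 1 was lower with Set1 RNAi (1.66% of all features), 7 higher (28.5%) and 2 lower (17.9%) with Trr RNAi, and 5 higher (28.5%) and 3 lower (18.7%) with Trx RNAi.

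The piRNA gene that fell with Set1 RNAi was arx (-1.5, SE 0.18). piwi was low in all groups (1.49 CPM in the control) and was at 0.17, -0.11 and -0.07. Those higher with both Trr and Trx RNAi were AGO3, Hen1, squ, krimp and spn-E, led by the helicase gene spn-E (2.47 and 2.32), and aub and del were past the thresholds with Trr RNAi and not with Trx RNAi (1.08 and 1.5, against 0.73 and 0.91 with Trx RNAi). rhi, an HP1 relative of piRNA clusters, fell by 1.61 and 1.73, tej by 1.90 and 1.94, and SoYb fell by 1.36 with Trx RNAi. With 3 RUVs factors HP6, AGO3, Hen1, squ, krimp, spn-E, aub and del lost their calls, as did the falls of Kdm4A, Kdm4B and, with Trr RNAi, rhi (-0.92), and squ was then at -0.07 and -0.08. Without replicate 1, aub (0.83) and Hen1 (0.92) were under the fold threshold with Trr RNAi, and krimp (0.78) with Trx RNAi. With library totals alone, Kdm4A was at -0.40 with Trr RNAi, Kdm4B at -0.58 and -0.63 with Trr and Trx RNAi, rhi at -0.98 with Trr RNAi and SoYb at -0.66 with Trx RNAi, all under the fold threshold. Of the 4 siRNA pathway genes 0 were called by edgeR with any knockdown (0, 2 and 2 at an unadjusted p below 0.05 with Set1, Trr and Trx RNAi). Of all features 8.92%, 46.4% and 47.3% were called with Set1, Trr and Trx RNAi. Dcr-2, the Dicer of this pathway, was at 0.94 with both Trr and Trx RNAi. The medians of the piRNA list were 0.00, 0.01 and 0.06, compared with 0.01, 0.08 and 0.09 over all features.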

How the data were processed

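Nuclear RNA of enriched photoreceptor nuclei was sequenced, and the authors deposited a table of read pair counts per feature for each of the 72 samples. According to the study's methods, reads were trimmed (cutadapt 3.7, Trimmomatic 0.39), aligned with HISAT2 2.2.1 and SAMtools 1.17, and counted by featureCounts (Subread 2.0.1) on exons of an Ensembl BDGP6.46 annotation, without strand and without reads that map to several places. The element has the FlyBase symbol 1360, and hoppel is its synonym, so copies are given here as hoppel with the feature identifiers of the files. Names came from a FlyBase name table. Introns and hosts came from the gene and exon coordinates given with the counts, and all 493 copies of 1360 have the same span in BDGP6.54. No genome sequence was used here.

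Counts were fitted in R 4.3.3 with edgeR 4.0.16 (TMM scaling, factors 0.718 to 1.36, quasi-likelihood tests, Benjamini-Hochberg adjustment over all 14767 features), with a mean per genotype and time point, or a cosine and sine per genotype for rhythms. DESeq2 1.42.0 was an alternative. The test scripts were checked on simulated counts. The samples of a group are not said to come from separate cultures of flies, so p-values measure the spread between these samples. Replicate numbers did not pair samples. The copies named were the 8 with the highest mean, the 3 largest rises and falls per knockdown past the thresholds with the same direction at every time point (2 and 2 for Trr against Trx RNAi), the 3 lowest adjusted p of each rhythm or change of rhythm, and the 3 highest on chromosome 4, with their hosts, and of the silencing lists those past the thresholds plus 4 fixed genes. Groups of copies in the same host or neighbourhood were chosen after their values were seen. The members and lists were chosen with earlier results of these data known. Alternatives were other scalings, filters, libraries, a replicate block and RUVs factors of unwanted variation.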

Additional observations from a re-analysis of the deposited data

Results flagged for a closer look

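For the following copies the difference between groups itself was past the threshold of the test. The daily rhythm with Set1 RNAi differed from that of the control for FBti0061958 beside CkIIalpha (edgeR adjusted p = 0.00125), FBti0215201 in Pzl (edgeR adjusted p = 0.00172) and FBti0061747 in lncRNA:CR44997 (edgeR adjusted p = 0.0102). With Trr RNAi it differed for FBti0059788 in EcR (edgeR adjusted p = 1.34e-08), FBti0020230 (edgeR adjusted p = 2.87e-07) and FBti0020224 (edgeR adjusted p = 9.15e-06). With Trx RNAi it differed for these copies as well, at 1.16e-07 for FBti0059788, 4.06e-06 for FBti0020230 and 0.000195 for FBti0020224 (edgeR adjusted p). The Trr and Trx comparisons share their control libraries.

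The mean level differed between Trr and Trx RNAi for FBti0215108 beside Maf1 (edgeR adjusted p = 3.62e-18), FBti0062777 (edgeR adjusted p = 0.0012) and FBti0215201 in Pzl (edgeR adjusted p = 3.6e-08). FBti0215108 met the rule for inclusion only through Trr RNAi, FBti0062777 only through the control and FBti0215201 only through Set1 and Trx RNAi, so the higher level of FBti0215108 with Trr RNAi and the lower one of FBti0215201 were favoured by their entry. FBti0059788 and FBti0061747 also met it in only 2 genotypes, the control and Set1 RNAi for the former and Trr and Trx RNAi for the latter. The changes of rhythm of FBti0059788, and that of FBti0215201 with Set1 RNAi, were thus favoured by their entry too.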

How the results depend on the processing

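Among the fold changes of named copies and genes under 15 other settings, 1425 kept their direction and their side of the thresholds, 94 no longer passed and 3 changed sign, all with 3 RUVs factors: Hen1 with Trr RNAi (-0.0371) and squ with Trr and Trx RNAi (-0.0663 and -0.0845). Of those 94, 33 were with 3 RUVs factors and 24 with 1. With 3 RUVs factors 19, 10 and 13 copies were higher with Set1, Trr and Trx RNAi, against 749, 1588 and 1488 features. A rhythm was then found for 5 copies with Trx RNAi, against 1015 features. It changed for 11 copies with Set1 RNAi and 29 with Trx RNAi, against 1014 and 3555 features. With 1 factor, 19 and 17 copies were higher with Trr and Trx RNAi, and 15 were rhythmic with Trr RNAi, against 3053, 3002 and 1169 features. A filter at a mean of 1 CPM left 150 copies and 13501 features. Of these copies, 18, 23 and 25 were higher with Set1, Trr and Trx RNAi, against 753, 3668 and 3731 features. With this filter 4 copies were lower with Set1 RNAi, 1 was higher with Trr than with Trx RNAi, and 4 changed their rhythm with Set1 RNAi. Of all features, 173, 44 and 515 did so. With no filter 415 copies and 22082 features were tested. There 66 and 65 copies were higher with Trr and Trx RNAi, against 5599 and 5434 features. With library totals alone 60 and 62 of the 200 copies were higher and 28 and 28 lower with Trr and Trx RNAi. Of all features, 6038 and 6358 were higher and 1475 and 1393 lower. In fits of only the genotypes compared, rhythms were found for 29 copies in the control and 10 with Trx RNAi, and a change for 0 with Set1 RNAi. Of all 14767 features, 3158, 1773 and 31 passed there, and 3863 and 2332 were rhythmic with Set1 and Trr RNAi. At a BIC weight of 0.6, 18 of 46 classified copies had lost their rhythm, against 53.7% of all classified features. The causes were not tested.

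With 1 replicate number, or control ZT12 replicate 1, left out, 1 to 2 copies were higher and 1 to 2 lower with Trr than with Trx RNAi. Rhythms were found for 45 to 73 copies in the control, 26 to 63 with Set1 RNAi, 2 to 14 with Trr RNAi and 0 to 4 with Trx RNAi, and changes for 0 to 9, 8 to 46 and 4 to 23 with Set1, Trr and Trx RNAi. The settings without that library and without ZT12 were chosen after seeing the data.

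With the replicate number as a block, 30 copies were higher and 7 lower with Set1 RNAi, 39 and 61 with Trr RNAi, 40 and 57 with Trx RNAi, and 2 and 2 between Trr and Trx RNAi. Rhythms were found for 72, 50, 9 and 3 copies in the control, Set1, Trr and Trx RNAi, and changes for 7, 35, 16 and 0. The numbers did not pair the samples: over 53 pairs of samples with the same number, the correlation of deviations ran from -0.46 to 0.57 (median 0.003), and 8 pairs were over 0.1. Depth limits the copies at low CPM, and no sequence of the copies was analysed here.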
